A study of Mus musculus with 4 samples.

Results

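The genes described here are Trp53, which encodes the transcription factor p53, and 9 genes that restrain p53 or are transcribed under its control. They are Mdm2, Mdm4, Trp53inp1, Ccng1, Perp, Zmat3, Phlda3, Btg2 and Ei24. They were found by gene name among the probes that are not controls, which gave 12 of 55681 probes and 10 of 34816 genes. Each gene had 1 probe except Mdm4 and Trp53inp1, which had 2 each.

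The study asked how the kinase AKT acts on the reprogramming of fibroblasts into induced pluripotent stem cells. Mouse embryonic fibroblasts (MEFs) from a pool of male E13.5 embryos carried an EGFP reporter under the Oct4 promoter. All 4 groups received retroviral Oct4, Sox2 and Klf4 (OSK). The OSKA groups also received AKT-MER, in which a myristoylated AKT is joined to an altered estrogen receptor and is switched on by 4-hydroxytamoxifen (4OHT). Cells were given 4OHT or vehicle from day 3 after infection and were sampled on day 8. There was 1 single-colour array for each of the 4 groups, OSK or OSKA cells without or with 4OHT, and OSKA cells given 4OHT are called AKT-activated cells. The free-text description of the last array words AKT-MER as inactive, against the title and the design text, and the title was followed. The RNA came from whole, mixed cultures in which retroviral expression can differ from cell to cell, so that fewer cells of a type and less RNA per cell cannot be told apart.

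p53 is a stress-activated transcription factor that halts the cell cycle, starts DNA repair or leads to cell death, and it is known as a barrier to reprogramming. Its amount is set mainly after translation. MDM2, an E3 ubiquitin ligase, marks p53 for degradation, and the gene Mdm2 is itself a p53 target, which closes a feedback loop. AKT is known to phosphorylate MDM2, and PHLDA3, the product of another p53 target, is known to keep AKT from the membrane. The arrays measured transcripts only, not the p53 protein or its activity.

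The sequences of 3 probes are shown because the results turn on what they measured. One read Trp53, which was level, and the others are the second probes of Mdm4 and Trp53inp1. They are 60 bases long and can be read without a stop codon in 2 of 3 frames. The probe positions are those of the array files, in the NCBI37 build. Whether each lies in an exon or a UTR was not analysed here.
Trp53 (A_55_P1968068, chr11:69404204-69404263): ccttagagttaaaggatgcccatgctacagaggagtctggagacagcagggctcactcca
Mdm4 (A_52_P485905, chr1:134888407-134888466): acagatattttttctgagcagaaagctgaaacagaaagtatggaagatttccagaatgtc
Trp53inp1 (A_55_P1973906, chr4:11092530-11092589): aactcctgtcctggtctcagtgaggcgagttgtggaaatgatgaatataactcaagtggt

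The promoters of the members were searched for the p53 half-site, the 10-base motif of which a p53 response element holds a pair. RefSeq promoters of GRCm38.p6 were given for 7 of the 10 genes, and the 250 bases before each start were read on both strands, on which the motif reads alike. The half-site was found for Trp53, Mdm2, Ccng1 and Ei24, in 4 of 8 promoters of these genes. It was found in 7.13% of 32851 promoters of all genes and in 9 of 67 promoters (13.4%) of the other p53 targets listed further on. A pair of half-sites with at most 13 bases between them was in none of the 8 promoters and in 0.0639% of all promoters. Trp53inp1, Perp and Zmat3 were not in the promoter table. The 4 stretches are shown 5′ to 3′ on the strand of the gene, because they place the motif near the start of genes whose levels follow. Capitals mark the half-site, and a match in letters is a description and not a bound site.
Trp53 (chr11:69580259-69580318, plus strand): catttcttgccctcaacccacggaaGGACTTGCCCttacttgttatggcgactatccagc
Mdm2 (chr10:117710910-117710969, minus strand): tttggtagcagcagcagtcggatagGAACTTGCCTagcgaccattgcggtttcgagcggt
Ccng1 (chr11:40755437-40755496, minus strand): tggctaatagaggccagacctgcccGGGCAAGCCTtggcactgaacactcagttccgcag
Ei24 (chr9:36797335-36797369, minus strand): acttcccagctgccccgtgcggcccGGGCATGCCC

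The half-site began 75 bases before the start in Trp53, 186 in Mdm2, 185 in Ccng1 and 10 in Ei24.

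A level is the log2 intensity of a probe minus that of the array's 75th percentile, and a difference is the level on one array minus that on another. With 1 array per group there was no replicate and no test, which limits the precision. The only error at hand is that of the scanner software, which was 0.20 to 0.21 (log2) for a difference of any member and covers the measurement on an array, not the spread between cultures. A difference was counted from 1.5-fold, which is 0.58 on the log2 scale. The 75th percentile of intensity was 377 to 462 and 52.4% to 55.4% of the spots were well above background on the 4 arrays. All 12 member probes were well above background on all 4 arrays, as were 48.3% of all probes. The probe of Esr1, which reads the receptor part of the transgene, was dim, that is not well above background, in OSK cells, and OSKA cells exceeded them at least 219-fold without and at least 233-fold with 4OHT. All 10 fibroblast markers were well above background on each array. The pluripotency markers Zfp42 and Esrrb were not well above background on any array, and the other 6 of the 8 pluripotency markers were.

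Few of the p53 genes differed by 1.5-fold between arrays. In the AKT-activated cells, Perp was 1.60-fold higher than in OSKA cells without 4OHT, and it was the 1 member of 10 past that fold, beside 9.69% of 20300 measured genes. Perp was also the 1 member past it between OSKA and OSK cells without 4OHT, where it was lower, beside 9.65% of 20183 genes. Between OSKA and OSK cells with 4OHT the 1 member was Trp53inp1, which was 1.91-fold higher, beside 10.6% of 19846 genes. Between OSK cells with and without 4OHT no member passed it by its brightest probe relative to the 75th percentile, beside 5.95% of 19861 genes. Relative to spike-in controls Trp53inp1 (−0.79) and Perp (−0.66) did, beside 13.4% of genes. Relative to the 75th percentile no member differed by 2-fold, beside 0.886% of genes for 4OHT in OSK cells, 2.91% for 4OHT in OSKA cells, 2.02% for AKT-MER without 4OHT and 3.04% for AKT-MER with 4OHT. The members' shares lay near those of all genes. Each array entered 2 of these 4 comparisons, so they are not independent of each other.

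**Figure D1:**
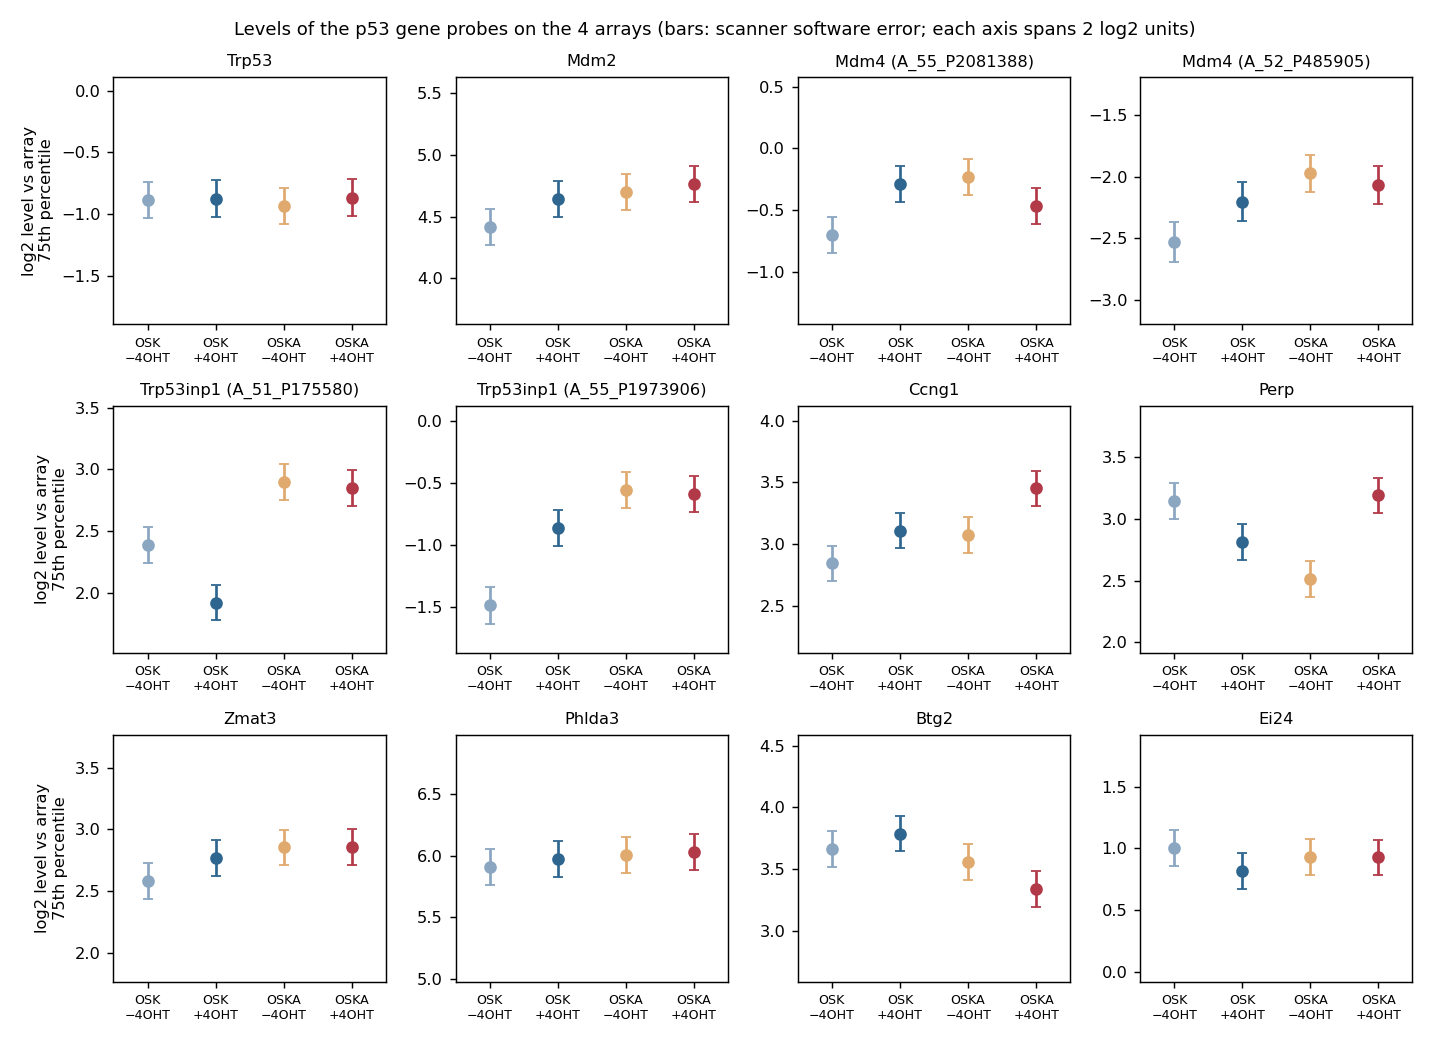
Level of each of the 12 probes on the 4 arrays (log2, with the array's 75th percentile at 0), with the error of the scanner software as bars and 1 array per group. Each vertical axis spans 2 log2 units. Trp53 lay between −0.94 and −0.87 on all arrays, Perp was lowest in OSKA cells without 4OHT, and the 2 probes of Trp53inp1 were lowest on different arrays.

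Trp53 itself was level. Its probe, which is spotted 2 times on each array, was at −0.89 without and −0.88 with 4OHT in OSK cells, and at −0.94 without and −0.87 with 4OHT in OSKA cells. The 4 levels spanned 0.07 (1.05-fold), a range smaller than that of nearly all genes, at percentile 1.53 of 19540 genes measured on all arrays. The median range of those genes was 0.36. Each level is a mean of 2 spots, so the percentile is not a like comparison with probes that have 1 spot. The single spots were farther apart than the arrays. The first spot ran from −0.95 in OSKA cells without 4OHT to −0.72 in OSKA cells with 4OHT, and the second from −1.02 in OSKA cells with 4OHT to −0.91 in OSK cells with 4OHT, so that the spots put the same array at opposite ends. With 4OHT, Trp53 differed by 0.07 ± 0.21 (log2 difference and scanner error) in OSKA cells and by 0.01 ± 0.21 in OSK cells. Only relative to spike-in controls, which moved all genes, did it differ by more than the error, as given further on.

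Both restrainers of p53 were lowest in OSK cells without 4OHT relative to the 75th percentile, but by their brightest probes neither was relative to the spike-in controls. Mdm2 (chromosome 10, 117126010 to 117126069) was at 4.42 without and 4.64 with 4OHT in OSK cells, and at 4.70 without and 4.76 with 4OHT in OSKA cells. The 3 other arrays lay within 0.12 of each other, and the difference was 0.23 ± 0.20 for 4OHT in OSK cells, 0.06 ± 0.20 for 4OHT in OSKA cells and 0.28 ± 0.20 for AKT-MER without 4OHT. Relative to the spike-in controls the first was −0.10 and the last −0.18. Mdm4, whose product is related to MDM2 and blocks the transactivating part of p53, was at −0.71, −0.29, −0.23 and −0.47 on the 4 arrays in the same order, by its brighter probe (chromosome 1, 134886426 to 134886485). Mdm4 was 1.34-fold higher with 4OHT in OSK cells (0.42 ± 0.21), and the value with 4OHT in OSKA cells was −0.24 ± 0.21. Its second probe, 1981 bases away and shown above, was at −2.53, −2.20, −1.97 and −2.07. It gave 0.33 for 4OHT in OSK cells and −0.10 for 4OHT in OSKA cells, the same signs with smaller sizes. Without 4OHT, AKT-MER gave 0.47 by the first probe and 0.55 by the second, each short of 1.5-fold, and relative to the spike-in controls these were 0.01 and 0.09. With 4OHT the probes had opposite signs, −0.18 and 0.13.

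**Figure D2:**
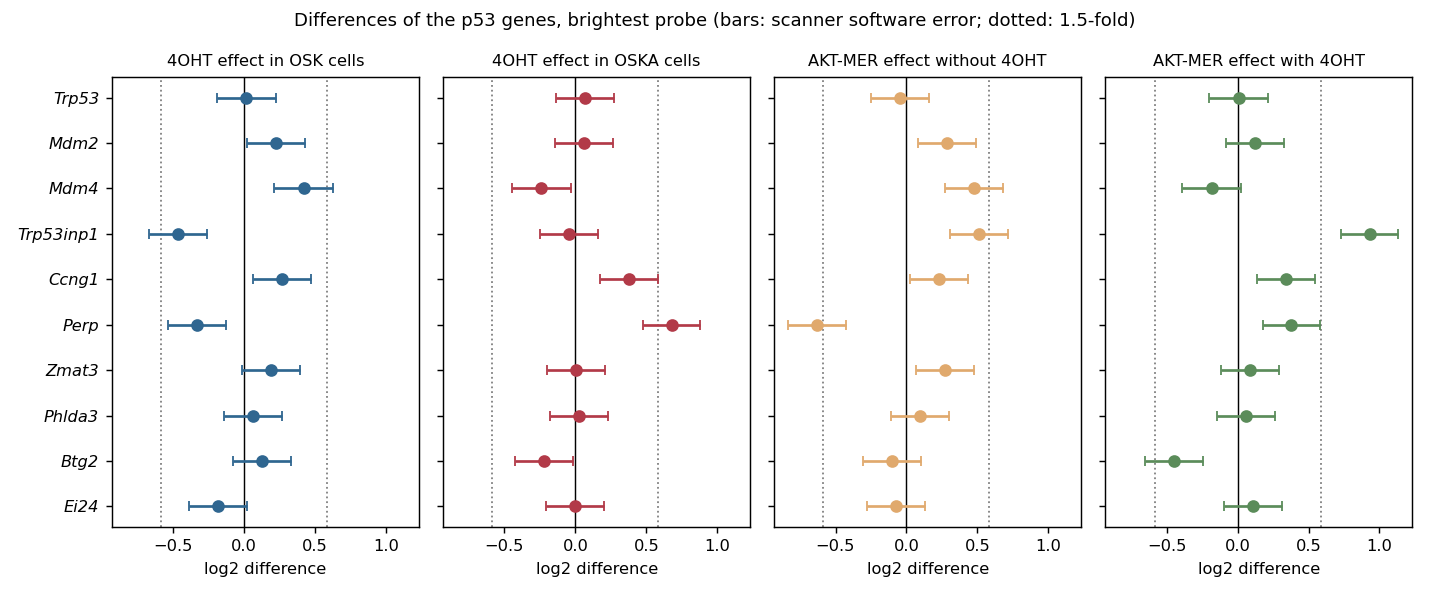
Log2 differences of the 10 p53 genes, brightest probe of each, in the 4 comparisons, with the error of the scanner software as bars and dotted lines at 1.5-fold. Perp lies past a dotted line at 0.68 for 4OHT in OSKA cells and at −0.63 for AKT-MER without 4OHT, and Trp53inp1 at 0.93 for AKT-MER with 4OHT.

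Ccng1 and Btg2, the members best known for the cell cycle, had different patterns. Ccng1 encodes cyclin G1, which recruits a phosphatase to MDM2, and was at 2.84 without and 3.11 with 4OHT in OSK cells, and at 3.07 without and 3.45 with 4OHT in OSKA cells (chromosome 11, 40562427 to 40562486). The differences of Ccng1 were larger than their error and had the same sign in all 4 comparisons. They ran from 0.23 ± 0.20 for AKT-MER without 4OHT to 0.38 ± 0.20 for 4OHT in OSKA cells, and none reached 1.5-fold. The smallest was 1.12 times its error. No other member met this description, but the share of all genes that met it was not counted. The comparisons share the same 4 arrays, so their common sign is not 4 separate findings. The range of Ccng1 over the 4 arrays, 0.61, lay at percentile 77.0 of all genes. Relative to the spike-in controls Ccng1 was at −0.06 for 4OHT in OSK cells and −0.23 for AKT-MER without 4OHT. Btg2, an antiproliferative gene that acts with the deadenylase complex of mRNA decay, was at 3.66, 3.79, 3.56 and 3.34 in the same order (chromosome 1, 135972094 to 135972153). It was lowest in the AKT-activated cells, with −0.22 ± 0.20 against OSKA cells without 4OHT and −0.45 ± 0.20 (0.733-fold) against OSK cells with 4OHT. The highest level of Ccng1 and the lowest of Btg2 were thus on the same array.

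Perp, a p53 target that encodes a membrane protein of desmosomes linked to cell death, was at 3.14 without and 2.81 with 4OHT in OSK cells, and at 2.51 without and 3.19 with 4OHT in OSKA cells (chromosome 10, 18576697 to 18576756). Relative to the 75th percentile the AKT-activated cells were level with the OSK cells without 4OHT (0.05), and relative to the spike-in controls they were lower (−0.40). The low array was that of OSKA cells without 4OHT. The difference for 4OHT was 0.68 ± 0.20 in OSKA cells (1.60-fold, percentile 96.03 of measured genes) and −0.33 ± 0.20 in OSK cells (0.794-fold, percentile 8.06). The difference for AKT-MER was −0.63 ± 0.20 without 4OHT (0.646-fold, percentile 3.45) and 0.38 ± 0.20 with 4OHT (1.30-fold). Perp is also known as a gene of epithelia, and epithelial markers were therefore read beside it. The 6 markers Cdh1, Epcam, Krt8, Krt18, Cldn3 and Cldn4 had a summed level, as a multiple of the 75th percentile, of 4.35, 3.47, 2.47 and 4.06 in the same order of arrays, which is the order of Perp except that the 2 highest arrays changed places. Their median difference was 0.47 for 4OHT in OSKA cells and −1.005 for AKT-MER without 4OHT, with 4 of 6 and 1 of 5 measured markers higher. It was −0.39 for 4OHT in OSK cells, with 1 of 5 higher, and 0.00 for AKT-MER with 4OHT, with 3 of 6 higher, where Perp was at 0.38. Cldn4 was not well above background in OSK cells without 4OHT. Their part in the values of Perp was not tested.

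Trp53inp1 encodes a stress-induced nuclear protein of the p53 death and autophagy response, and its 2 probes disagreed. The brighter probe (chromosome 4, 11101174 to 11101233) was at 2.39 without and 1.92 with 4OHT in OSK cells, and at 2.90 without and 2.85 with 4OHT in OSKA cells. The second probe, 8644 bases upstream and shown above, was at −1.49, −0.86, −0.56 and −0.59. For 4OHT in OSK cells the first gave −0.46 ± 0.20 and the second 0.63, which is 1.54-fold, so the direction in OSK cells is not settled. Both probes gave higher levels in OSKA cells, with 4OHT by 0.93 ± 0.20 and 0.27, and without it by 0.51 ± 0.20 and 0.93. Relative to the spike-in controls these were 0.80 and 0.15 with 4OHT, and 0.05 and 0.47 without it. Both were level between the OSKA arrays, at −0.05 and −0.03. The range of Trp53inp1 over the 4 arrays, 0.98, was the widest of the 10 genes and lay at percentile 92.6 of all genes.

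The other 3 genes stayed closer together. Zmat3, an RNA-binding zinc finger protein, was at 2.58, 2.77, 2.85 and 2.86 in the order used above (chromosome 3, 32233831 to 32233890), and its largest difference was 0.27 ± 0.20, for AKT-MER without 4OHT, which was −0.19 relative to the spike-in controls. Phlda3, the repressor of AKT, was at 5.91, 5.97, 6.003 and 6.03 (chromosome 1, 137665642 to 137665701). It differed by 0.03 ± 0.20 for 4OHT in OSKA cells and its range of 0.12 was at percentile 6.77 of all genes. Ei24, a membrane protein of the endoplasmic reticulum with a part in autophagy, was at 1.003, 0.82, 0.93 and 0.93 (chromosome 9, 36587287 to 36587346), a range of 0.18. Relative to the 75th percentile no difference of Phlda3 or Ei24 was larger than its error, while relative to the spike-in controls Phlda3 was at −0.26 and Ei24 at −0.51 for 4OHT in OSK cells, and at −0.37 and −0.53 for AKT-MER without 4OHT. The probes of Mdm4, Btg2 and Phlda3 lie within 2.78 Mb of chromosome 1. Relative to the 75th percentile Mdm4 was highest in OSKA cells without 4OHT, Btg2 in OSK cells with 4OHT and Phlda3 in AKT-activated cells. Of all genes, 19.0%, 22.1% and 27.3% were highest on these arrays. Each gene's highest array exceeded the next by less than the scanner error, so these places are not firm. Relative to the spike-in controls Btg2 and Phlda3 were both highest in OSK cells without 4OHT, as were 80.0% of all genes.

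**Figure D3:**
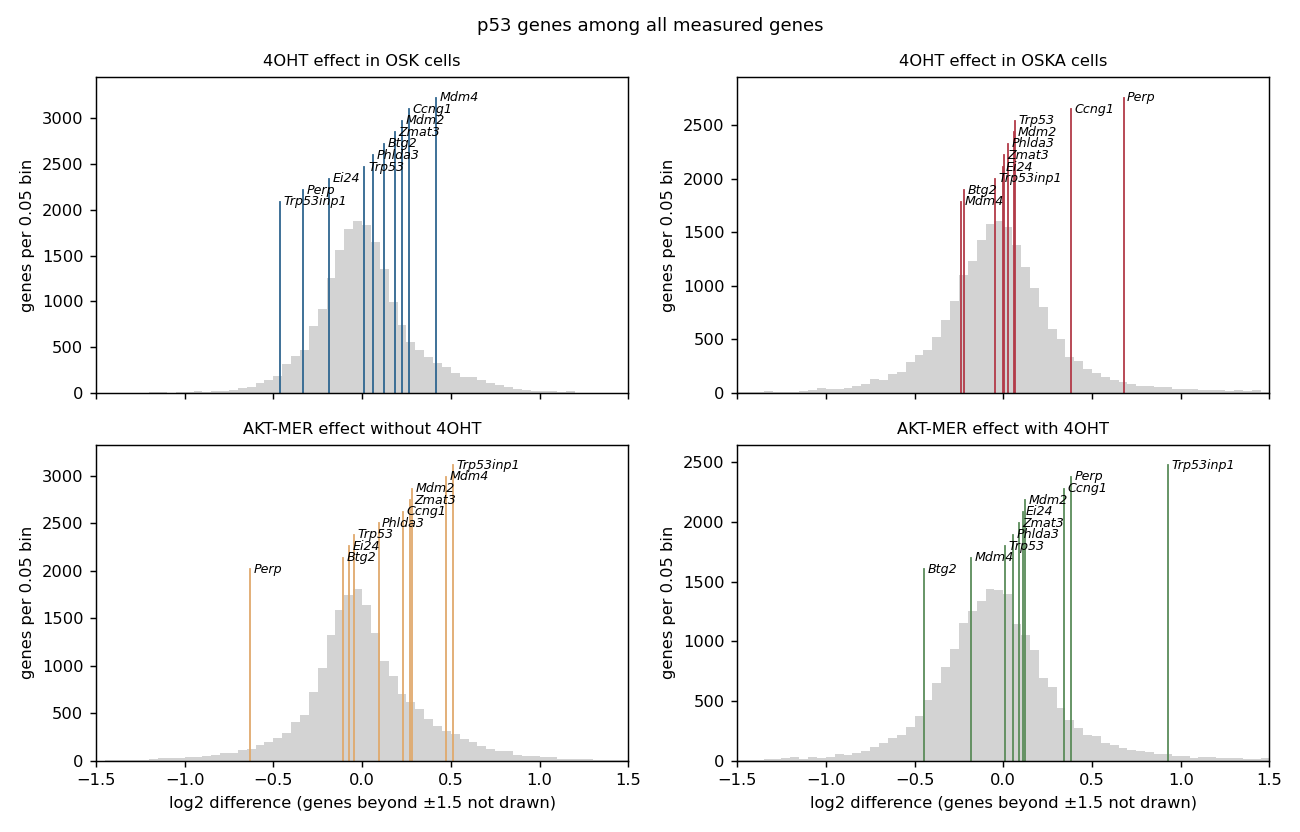
Log2 differences of the 10 p53 genes (named vertical lines, whose heights differ only to part the names) among all measured genes (grey, number of genes per bin of 0.05) in the 4 comparisons. Most of the lines fall inside the bulk of the genes, and Perp for 4OHT in OSKA cells and Trp53inp1 for AKT-MER with 4OHT stand at its right edge, while Perp for AKT-MER without 4OHT and Trp53inp1 for 4OHT in OSK cells stand at its left edge.

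As a group, the 10 genes had a median difference of 0.09 for 4OHT in OSK cells, 0.01 for 4OHT in OSKA cells, 0.16 for AKT-MER without 4OHT and 0.10 for AKT-MER with 4OHT. The medians of all measured genes were −0.00, −0.03, −0.02 and −0.05. Of the 40 differences, 19 were larger than their scanner error and 8 larger than 2 errors, beside 40.5% and 14.8% of the 80190 differences of all measured genes. Relative to the 75th percentile, 5 of the 10 genes (Mdm2, Mdm4, Ccng1, Zmat3 and Phlda3) were lowest in OSK cells without 4OHT, where 27.2% of 19540 genes were lowest, but relative to the spike-in controls none of the 10 were lowest and 7 were highest on that array, beside 3.71% and 80.0% of all genes. The macrophage markers Ptprc, Cd68, Csf1r, Adgre1, Aif1 and Lyz2 had their lowest summed level on that array too, as a multiple of the 75th percentile. It was 140, against 186 to 203 on the other arrays, and the sums were not taken relative to the spike-in controls. All 6 were higher for 4OHT in OSK cells (0.19 or more, median 0.56) and for AKT-MER without 4OHT (0.24 or more, median 0.52) before the spike-in shift given next, and their part in the values of the p53 genes was not tested.

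Scaling to the spike-in controls moved every difference by −0.32 for 4OHT in OSK cells, 0.01 for 4OHT in OSKA cells, −0.46 for AKT-MER without 4OHT and −0.13 for AKT-MER with 4OHT. It left the order of the genes within a comparison as it was. The members then differed from the median of all genes by 0.10, 0.05, 0.18 and 0.15, as under the main scaling. Only the 4OHT comparison in OSKA cells was nearly free of this shift, and there Perp stood at 0.69. Relative to the spike-in controls, Trp53 was at −0.31 for 4OHT in OSK cells and −0.51 for AKT-MER without 4OHT, and Perp at −1.09 for AKT-MER without 4OHT, which is past 2-fold, as were 5.02% of all genes there under that scaling.

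**Figure D4:**
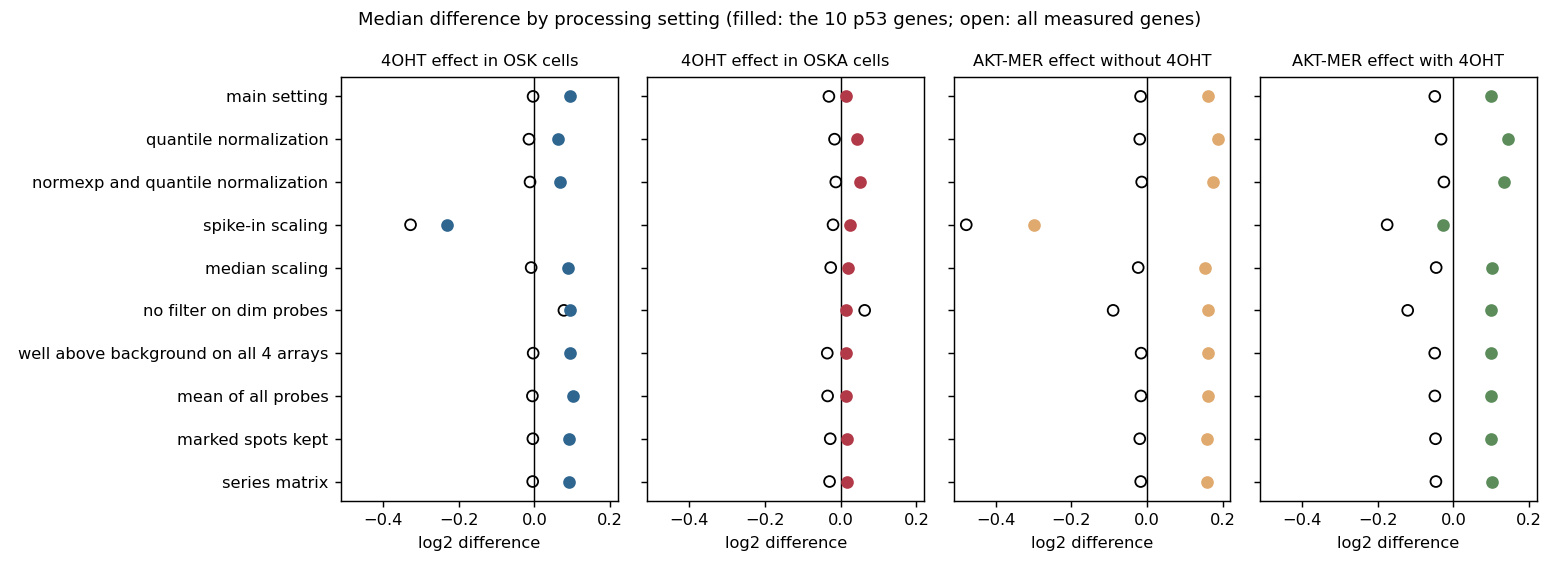
Median log2 difference of the 10 p53 genes (filled points) and of all measured genes (open circles) under 10 ways of processing, in the 4 comparisons. Spike-in scaling moves both points together to the left in all comparisons but the 4OHT effect in OSKA cells (0.01 to the right), most for AKT-MER without 4OHT, where the members go from 0.16 to −0.30, and the other settings keep the members between 0.06 and 0.19 in that comparison and in the 4OHT effect in OSK cells.

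The other genes of the pathway were read from 5 lists with 73 genes. Of 71 to 73 measured, 2 rose and 0 fell by 1.5-fold for 4OHT in OSK cells, 2 rose and 4 fell for 4OHT in OSKA cells, 2 rose and 0 fell for AKT-MER without 4OHT, and 6 rose and 2 fell for AKT-MER with 4OHT. Of all measured genes, 4.33% were higher and 1.63% lower by 1.5-fold in the first of these comparisons, 5.06% and 4.63% in the second, 5.66% and 3.99% in the third, and 5.46% and 5.1% in the last. The 55 other p53 targets had medians of 0.02, 0.05, 0.09 and 0.10 in these comparisons, and the 18 regulators had −0.04, −0.03, −0.06 and −0.04. Relative to the spike-in controls the medians were −0.31, 0.06, −0.37 and −0.03 for the targets and −0.37, −0.01, −0.52 and −0.17 for the regulators. Under that scaling the 2 genes that rose for 4OHT in OSK cells and the 2 for AKT-MER without 4OHT were short of 1.5-fold. Of all genes, 12.5% and 31.6% were then lower by 1.5-fold in these comparisons, and such falls were not counted in the lists.

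**Figure D5:**
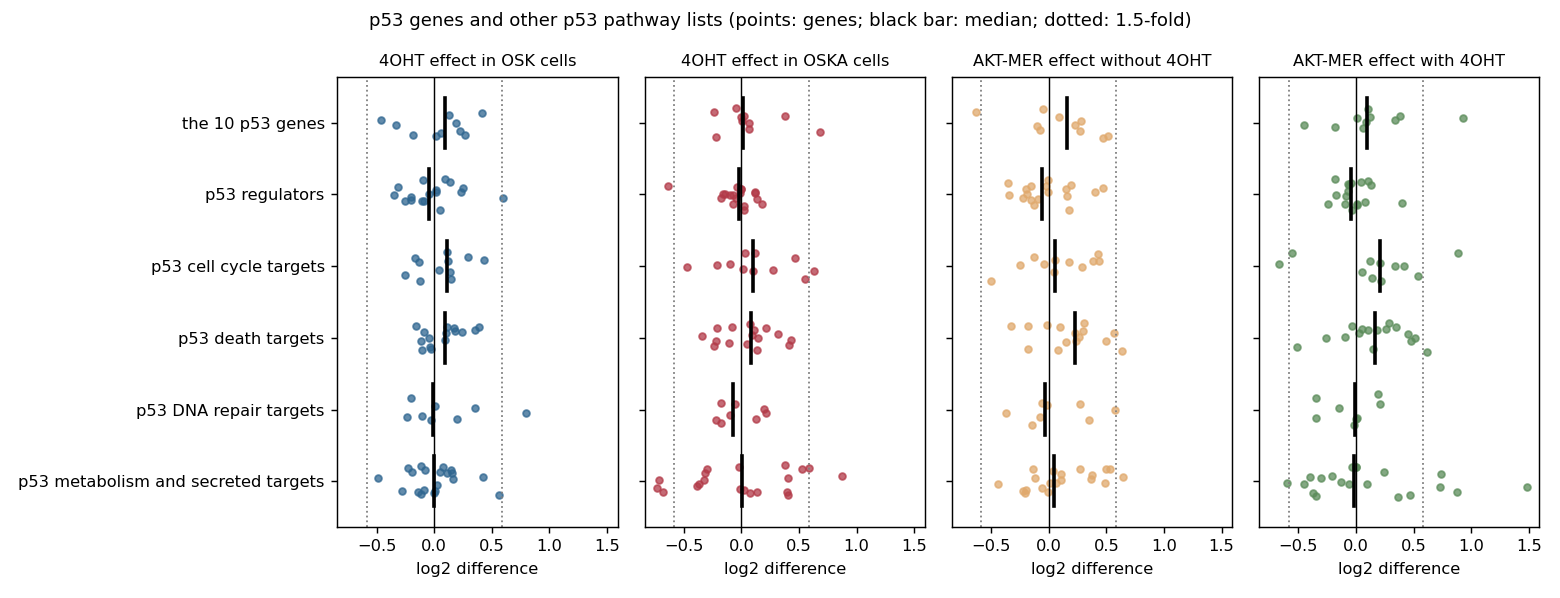
Log2 differences of single genes (points, spread vertically only to part them) in the 10 p53 genes and 5 other lists of the p53 pathway, with the list's median as a black bar and dotted lines at 1.5-fold. The medians of the lists lie between −0.08 and 0.22 in all panels, and the metabolism and secreted targets have the widest spread for AKT-MER with 4OHT, up to 1.48.

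Among the regulators, Cdkn2a, whose product ARF inhibits MDM2, was at 4.10, 4.70, 4.57 and 4.70 in the order used above. It was 1.52-fold higher for 4OHT in OSK cells (0.60, and 0.59 by its other probe) and gave 0.14 for 4OHT in OSKA cells (0.34 by its other probe), and relative to the spike-in controls the first value was 0.28. Chek1, a checkpoint kinase gene, had 0.642 times the level for 4OHT in OSKA cells (−0.64 ± 0.35). It was not well above background on the array of OSK cells with 4OHT. Among the cell cycle targets, Cdkn1a, the gene of the inhibitor p21, was at 3.52, 3.81, 3.94 and 4.22 by its brightest probe. Cdkn1a gave 0.28 for 4OHT in OSKA cells and 0.41 for AKT-MER with 4OHT, and its other 2 probes gave −0.14 to 0.24 and 0.26 to 0.34. For 4OHT in OSK cells the brightest gave 0.29 and the others −0.42 to 0.24. Relative to the spike-in controls the brightest gave −0.03 for 4OHT in OSK cells and 0.29 for AKT-MER with 4OHT. Gtse1, a G2 and S phase gene that restrains p53, was 1.55-fold higher for 4OHT in OSKA cells (0.63). Rprm, the gene of the arrest mediator reprimo, was 1.85-fold higher for AKT-MER with 4OHT (0.88).

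Among the death targets, Bax, which permeabilises the outer mitochondrial membrane, was at 4.04, 4.22, 4.30 and 4.37, with 0.08 for 4OHT in OSKA cells. Pidd1, a death-domain scaffold gene, was 1.56-fold higher for AKT-MER without 4OHT (0.64, and 0.70 by its other probe), and relative to the spike-in controls that value was 0.18. Eda2r, a receptor gene of the TNF receptor family, was 1.54-fold higher for AKT-MER with 4OHT (0.62 ± 0.38). Its probe was not well above background in OSK cells without 4OHT, and relative to the spike-in controls that value was 0.49. Of the 8 DNA repair targets, Rrm2b, a ribonucleotide reductase subunit gene, was the one past 1.5-fold, at 1.74-fold for 4OHT in OSK cells (0.80 ± 0.36). Its levels were low there, at −4.01 without and −3.21 with 4OHT, and its other probe gave no measured difference. Relative to the spike-in controls the value was 0.48.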

How the data were processed

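The deposited scanner files hold 1 intensity per spot on a linear scale, made by the authors with Agilent Feature Extraction 10.7.3.1 and corrected for background, with nothing normalized between arrays. The intensity in the deposited series matrix was 0.995 to 1.005 times the scanner value. The labelled input was 100 ng of RNA per array. All arrays were on 1 slide, so a group and its place on the slide cannot be told apart.

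Of 62976 spots, 59305 were not controls. From 104 to 155 spots marked as uneven or outlying were left out per array, and none was saturated. Log2 intensities were reduced by the 75th percentile of each array and averaged over the spots of a probe. A gene stands for its brightest probe, and a difference needed both arrays well above background. The software's error model (10% multiplicative error) gave a median error of 0.20. The 399 probes with 10 spots had a median spot SD of 0.058 to 0.067. Of all probes, 27509 (49.4%) were named by RefSeq accession (GRCm38.p6, names only), and the rest kept the name in the files. The members, lists and alternatives were chosen with earlier results of these data known. Besides the members, the text names Cdkn1a, Bax, Cdkn2a and, per list, up to 3 genes with the largest change of at least 1.5-fold for 4OHT in OSKA cells and the largest in each other comparison. The values of 1 gene chosen by this rule are not reported here. Steps were tested on simulated data (Python 3.11.15, pandas 2.3.3, limma 3.58.1 in R 4.3.3 for the normexp alternative).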

Additional observations from a re-analysis of the deposited data

Results flagged for a closer look

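For 2 genes the 4OHT effect had opposite signs in OSK and OSKA cells, each larger than its scanner error, as did 9.36% of the 19540 genes measured on all arrays. Perp was at −0.33 for 4OHT in OSK cells and at 0.68 in OSKA cells, a difference between the 4OHT effects of 1.01 ± 0.29 (log2 and scanner error). Equally, its AKT-MER effect was −0.63 without 4OHT and 0.38 with it, and the difference between these effects is the same 1.01, since both use the same 4 arrays. Mdm4 was at 0.42 for 4OHT in OSK cells and at −0.24 in OSKA cells, a difference of −0.66 ± 0.29, and its second probe gave −0.42 ± 0.31. With 1 array per group these differences were not tested. Relative to the spike-in controls they were 1.34 for Perp and −0.32 for Mdm4, whose value for 4OHT in OSK cells was then 0.09.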

How the results depend on the processing

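Over 9 alternatives, 337 of 360 differences of the members moved by less than their scanner error. Of the 23 others, 20 were under spike-in scaling, under which the remaining 20 did not move so far. The other 3 were those of Trp53inp1 with the mean of its probes. They were at 0.08 for 4OHT in OSK cells, 0.72 for AKT-MER without 4OHT and 0.60 with it. Many of the 337 could hardly have moved, so that number is no measure of robustness. All member probes were well above background on every array, so a change of that filter could not alter their values. The mean of all probes could change only Mdm4 and Trp53inp1, and the series matrix held nearly the same intensities. Spike-in scaling turned the median of the members to −0.23 for 4OHT in OSK cells, −0.30 for AKT-MER without 4OHT and −0.03 for AKT-MER with 4OHT (3 of 10 members higher, from 8, beside 27.2% of all genes, from 42.9%), and it raised the number of members past 1.5-fold from 0 to 2 (Trp53inp1 and Perp, both lower) for 4OHT in OSK cells, where the share of all genes past it went from 5.95% to 13.4%. With the mean of all probes that number was 2 (Perp and Trp53inp1) for AKT-MER without 4OHT, beside 9.35% of all genes. At 2-fold it was 0 in each of the 3 comparisons in which it was 1. The share of calls at 1.5-fold that were higher, over all genes, was 72.7%, 52.2%, 58.7% and 51.7% in the 4 comparisons. Under spike-in scaling it was 6.43%, 54.1%, 2.81% and 30.3%, and after normexp 85.5%, 64.4%, 58.5% and 61.2%. No paired analysis was possible because each group has 1 array. For the same reason no replicate could be left out. The error covers a single array, a single probe stands for 8 of the 10 genes, and cross-hybridisation and transcript variants were not analysed here.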

Other observations

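The p53 targets of metabolism and secretion, a list of 20 genes, had a larger SD of its differences than the other 4 lists in the 4OHT effect in OSKA cells (0.47) and the AKT-MER effect with 4OHT (0.53). The SD of all measured genes was 0.39 and 0.41 in these comparisons. For 4OHT in OSKA cells, 1 of the 20 genes rose and 3 fell by 1.5-fold, with a median of 0.00. Of all measured genes, 5.06% were higher and 4.63% lower by that fold. The one that rose was Ddit4, the gene of REDD1, an inhibitor of mTORC1. Its levels were 4.04 without and 3.93 with 4OHT in OSK cells, and 4.53 without and 5.41 with 4OHT in OSKA cells. Ddit4 was 1.83-fold higher for 4OHT in OSKA cells (0.87) and 2.79-fold higher for AKT-MER with 4OHT (1.48), and relative to the spike-in controls these were 0.88 and 1.36.

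Among those that fell were Gls2, a mitochondrial glutaminase gene, and Thbs1, the gene of the matrix protein thrombospondin 1. Gls2 was at −3.31, −3.54, −2.94 and −3.67 in the same order of arrays. It was 0.603-fold for 4OHT in OSKA cells (−0.73 ± 0.31), with a larger error than that of the members. Thbs1 was at 6.13, 6.16, 6.66 and 5.95, 0.610-fold in that comparison. Relative to the 75th percentile, both had their highest level in OSKA cells without 4OHT and their lowest in AKT-activated cells, and relative to the spike-in controls Gls2 was highest in OSK cells without 4OHT, at −0.09 for AKT-MER without 4OHT.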
